A study of Homo sapiens with 24 samples.

Results

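The genes described here encode the enzymes of the tricarboxylic acid (TCA) cycle, the steps that bring pyruvate into it, and the enzymes and carriers that refill it or exchange its intermediates with the cytosol. A fixed list of 32 gene symbols was matched to the gene names of the deposited count tables, and all 32 were found among 58735 genes. The cells were HEK293T, a human embryonic kidney line with epithelial morphology, sequenced after 24 h at 21% oxygen (normoxia) or 1% oxygen (hypoxia). Within each oxygen level there were 3 genotypes: unedited cells (WT), cells with a knockout of MIR210, the gene of the microRNA miR-210 (MIR210-KO), and cells with a knockout of MIR210HG, the long non-coding host gene of MIR210 (MIR210HG-KO). All 6 groups were grown in high-glucose DMEM with L-glutamine and heat-inactivated serum, and each held 4 libraries, 24 in all. Nothing in the labels tells if each knockout line was grown from 1 clone, or if the libraries of a group came from separate cultures, so p-values measure the spread between these libraries, which may be technical.

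The TCA cycle joins acetyl-CoA to oxaloacetate to make citrate, oxidises citrate stepwise back to oxaloacetate, and passes electrons to the respiratory chain, which needs oxygen. Pyruvate reaches the cycle through the mitochondrial pyruvate carrier and the pyruvate dehydrogenase complex, or through pyruvate carboxylase, which makes oxaloacetate directly. In low oxygen many cells turn pyruvate to lactate instead, and miR-210 is a microRNA that hypoxia-inducible factors are known to raise and that is known to act on mitochondrial metabolism.

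Library depth ran from 25556776 to 37858947 counts. Levels below are CPM, counts divided by the TMM-scaled library size and brought to a common scale, given as mean ± SD over 4 libraries, and log2 fold changes carry ± their standard error. A gene was called when its p-value from edgeR's quasi-likelihood test, adjusted over the 19952 genes tested, was under 0.05. MIR210HG, which checks the MIR210HG-KO label, was at 0 in all 8 MIR210HG-KO libraries and at 5.70 ± 0.65 CPM in WT in normoxia. In MIR210-KO in normoxia it was counted at 3.48 ± 1.1 CPM, which does not check the MIR210-KO label. Loss of miR-210 was not tested here in either knockout. Among lineage markers, NEFL and KRT8, which this line is known to express, were present in all groups, and the endothelial gene CDH5 and the T cell gene CD3E were at or near 0. Summed over their lists, endothelial markers reached at most 0.21 CPM in a library, blood markers 2.04 to 6.00 CPM and fibroblast markers 14.3 to 34.5 CPM. The line's own markers differed by genotype and by oxygen. The summed level of 4 epithelial markers was 172 to 193 CPM in MIR210-KO in normoxia and 62 to 66.5 CPM in WT. Summed kidney markers in normoxia were 11.3 to 13.6 CPM in MIR210HG-KO and 21.6 to 24.8 CPM in WT, and in hypoxia 9.57 to 11 CPM and 16.6 to 18.9 CPM. Summed neuronal-type markers in normoxia ran from 110 to 116 CPM in MIR210HG-KO, from 259 to 281 CPM in WT and from 447 to 471 CPM in MIR210-KO. In hypoxia they ran from 142 to 161, from 450 to 556 and from 516 to 564 CPM. Single markers did not all follow their sum. Of 4 neuronal-type markers, 3 were called lower in MIR210HG-KO than in WT in hypoxia (30.2% of all genes) and 1 higher (24.4%). The part of the markers in the results below was not tested.

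Libraries 1 and 3 of WT in hypoxia stood apart from libraries 2 and 4 for these genes. Of 31 members with enough counts to test, 26 (83.9%) were higher in both libraries 1 and 3 than in both libraries 2 and 4, and 0 were lower in both. Over all genes tested the shares were 30.8% and 26.7%. The balance of long over short genes, a sign of library composition, was -0.08 and 0.01 in libraries 3 and 1 and 0.22 and 0.30 in libraries 4 and 2, on the log2 scale. A fit without 4 libraries is therefore given beside the counts below and where it changed a call. It left out libraries 1 and 3 of WT in hypoxia, library 1 of MIR210-KO in hypoxia and library 3 of MIR210HG-KO in normoxia. Most members were higher in libraries 1 and 3, so leaving these out lowers the members' levels in WT in hypoxia by choice. That choice tends to deepen their fall in WT and to raise the knockouts against WT in hypoxia, also in the interactions. Such shifts are therefore not separate support. A fit without libraries 2 and 4 of WT in hypoxia was not run. Between pairs of libraries, the mean chi-square per gene measures how far their counts differ. It was 15.7 to 27.1 for library 3 of MIR210HG-KO in normoxia, beside 2.27 to 4.45 among the others of its group. For library 1 of MIR210-KO in hypoxia it was 8.57 to 15.7, beside 4.11 to 7.59. Leaving out these knockout libraries can also shift their groups' oxygen changes and interactions.

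The members were moderately to highly expressed, with 1 exception. ME3, a mitochondrial malic enzyme, had 0 to 7 counts per library and was not tested. Per kilobase of the deposited gene length, the highest level in WT in normoxia was that of MDH2, the mitochondrial malate dehydrogenase, at 131 ± 2.8 CPM per kb. The citrate carrier SLC25A1 followed at 88.5 ± 3.9, the mitochondrial aspartate aminotransferase GOT2 at 77.5 ± 0.84 and citrate synthase, CS, at 69.9 ± 2.1 CPM per kb. At the low end were pyruvate carboxylase, PC, at 6.68 ± 0.49, SUCLA2, a succinyl-CoA synthetase subunit, at 5.97 ± 0.25, PDP1, the phosphatase that activates pyruvate dehydrogenase, at 5.66 ± 0.17, and the malic enzyme ME2 at 5.00 ± 0.067 CPM per kb. The spans of PC and SUCLA2, and those of SUCLA2 and PDP1, met or overlapped within 1 SD of each mean, so their order is not resolved beyond the spread. The order also depends on the deposited length, which was 16243 bases for ME2 and 5927 bases for PC. Before division by length ME2 was at 81.2 ± 1.1 CPM and PC at 39.6 ± 2.9 CPM. Within the pyruvate dehydrogenase complex, the E1 alpha subunit PDHA1 stood at 48.4 ± 1.3 CPM per kb, DLAT (E2) at 33.5 ± 0.58, PDHB (E1 beta) at 32.6 ± 0.25, DLD (E3) at 28.2 ± 0.50 and PDHX, the E3-binding protein, at 14.6 ± 0.39 CPM per kb.

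**Figure D1:**
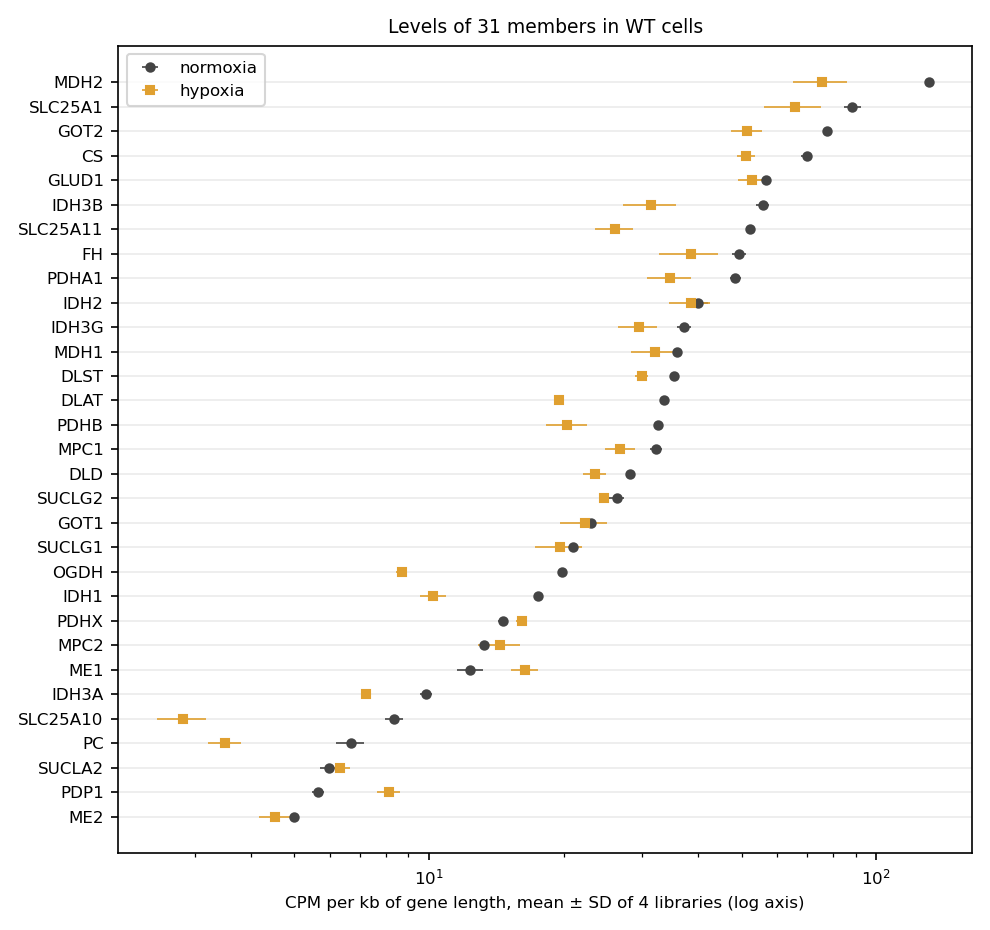
Level of the 31 tested members in WT in normoxia and in hypoxia, in CPM per kilobase of gene length on a log axis; points are means and bars SD over 4 libraries. MDH2 is the highest in normoxia at 131 CPM per kb, and most hypoxia points lie left of their normoxia points.

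The first question was how low oxygen changed these genes in each genotype. Most fell. In WT, 24 of 31 tested members were called, beside 60.3% of all genes tested: 21 were lower in hypoxia (30.7% of all genes) and 3 higher (29.6%). In MIR210-KO 24 were called (58.7% of all genes), 23 lower (29.5%) and 1 higher (29.3%). In MIR210HG-KO 25 were called (54.1%), 25 lower (28.3%) and 0 higher (25.7%). The members' median log2 change was -0.34, -0.41 and -0.46 in WT, MIR210-KO and MIR210HG-KO, and that of all genes was 0.00, 0.04 and 0.03. Without the 4 libraries 28 members were called in WT (59.6% of all genes), 26 lower and 2 higher, with a median of -0.44. As the WT libraries left out held the higher levels of most members, this larger fall is not separate support. In that fit 27 were called in MIR210-KO (61.5%), 26 lower and 1 higher, and 25 in MIR210HG-KO (56.8%), all 25 lower, with medians of -0.43 and -0.44. Of the 31 members, 18 were called lower in all 3 genotypes, a pattern met by 19.6% of all genes, and 0 were called higher in all 3, met by 15.4%. Together the 32 members took 0.392% ± 0.0031 of counts in WT in normoxia and 0.319% ± 0.017 in hypoxia, and the share also went from 0.372% ± 0.0051 to 0.320% ± 0.0083 in MIR210-KO and from 0.370% ± 0.0040 to 0.302% ± 0.0032 in MIR210HG-KO. The marker sums above also moved with oxygen in the same libraries, with the neuronal-type sum higher and the kidney sum lower in WT in hypoxia. Of 4 neuronal-type markers 3 were called higher and 1 was not called, and of 3 kidney markers 1 was called lower and 2 were not called. Their part in the members' changes was not tested. The percentages of counts are shares of a library, so fewer cells of a kind and less RNA per cell cannot be told apart. Each oxygen level was deposited as its own table, so oxygen and table cannot be told apart either.

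Upper quartile scaling moved the median of all genes to 0.10, 0.18 and 0.16 in WT, MIR210-KO and MIR210HG-KO, and raised the share of all called genes that were higher from 49.1% to 57.6%, from 49.8% to 64.1% and from 47.6% to 63.0%. Under it the members were still mostly lower, with 19, 19 and 20 lower and 5, 2 and 1 higher. The share of all genes called under that scaling was 60.9%, 60.7% and 56.3%. The long and short gene balance was -0.27 to -0.09 in normoxia and -0.08 to 0.30 in hypoxia. With that balance as a covariate 18, 17 and 19 members were lower and 3, 1 and 0 higher. The share of all genes called was then 53.2%, 42.8% and 32.4%, of which 47.2%, 44.8% and 40.3% were higher, and the members' median changes were -0.19, -0.23 and -0.27.

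**Figure D2:**
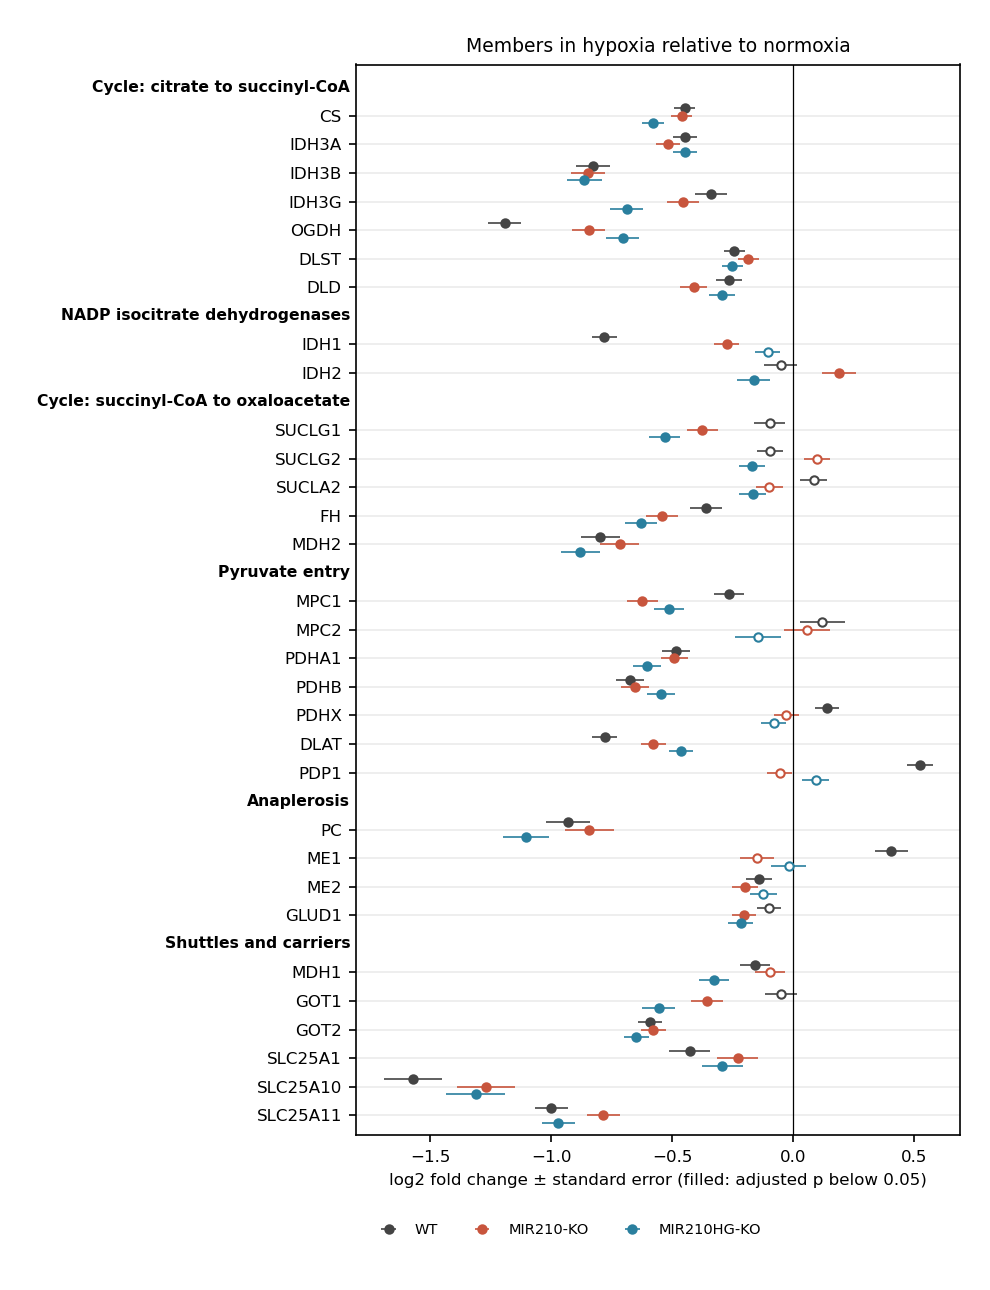
Log2 change of each member in hypoxia against normoxia in WT, MIR210-KO and MIR210HG-KO, with standard errors; filled points passed an adjusted p of 0.05 (edgeR). Most points lie left of 0 in all 3 genotypes, SLC25A10 lies farthest left, and PDP1 and ME1 lie right of 0 in WT but near 0 in both knockouts.

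The dicarboxylate carrier SLC25A10 had the largest fall of the members in each genotype. OGDH and SLC25A11 followed in WT, IDH3B and OGDH in MIR210-KO, and PC and SLC25A11 in MIR210HG-KO. SLC25A11 belongs to the malate-aspartate shuttle, which moves reducing equivalents from the cytosol into mitochondria. SLC25A10 read 23.3, 22.2, 21.3 and 21.0 CPM in the WT libraries in normoxia and 7.83, 6.01, 7.90 and 7.81 CPM in hypoxia. The groups did not overlap, in WT or in either knockout, and the change was -1.57 ± 0.12 in WT, -1.27 ± 0.12 in MIR210-KO and -1.31 ± 0.12 in MIR210HG-KO (adjusted p = 7.86e-13, 1.23e-10 and 1.28e-10). In MIR210-KO its libraries read 20.1, 19.5, 23 and 21.5 CPM in normoxia and 10.8, 7.91, 8.94 and 7.24 CPM in hypoxia, and in MIR210HG-KO 20.9, 20.4, 14.2 and 18.9 against 6.25, 6.89, 7.76 and 9.11 CPM. SLC25A10 was called in no comparison between genotypes.

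SLC25A11, the oxoglutarate and malate carrier of the shuttle, read 142, 136, 139 and 140 CPM in WT in normoxia and 73.9, 61.3, 76.4 and 66.8 CPM in hypoxia, without overlap. Its change was -1.0 ± 0.067 in WT, -0.79 ± 0.067 in MIR210-KO and -0.97 ± 0.068 in MIR210HG-KO. In MIR210HG-KO it read 132, 128, 108 and 120 against 59.7, 63.5, 60.2 and 65.5 CPM. GOT2, the mitochondrial aminotransferase of the shuttle, fell by 0.59 ± 0.050, 0.58 ± 0.050 and 0.65 ± 0.051 on the log2 scale. MDH2 fell by 0.80 ± 0.080, 0.72 ± 0.080 and 0.88 ± 0.081. GOT1, the cytosolic partner of GOT2, fell in both knockouts, with values given below. MDH1, the cytosolic partner of MDH2, changed less than MDH2. It was called lower in WT (-0.16 ± 0.062) and MIR210HG-KO (-0.33 ± 0.062) and not in MIR210-KO (-0.09 ± 0.062). The WT call of MDH1 held in 14 of 33 alternative settings, and its value was 0.03 with the length balance as a covariate. SLC25A1, which exports citrate for lipid synthesis, fell by 0.43 ± 0.086, 0.23 ± 0.086 and 0.29 ± 0.085, but with that covariate its changes were -0.13, 0.14 and 0.16 and none was called.

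All 7 members of the condensing, isocitrate and oxoglutarate steps (CS, IDH3A, IDH3B, IDH3G, OGDH, DLST and DLD) were lower in hypoxia in every genotype. OGDH, the E1 subunit of the oxoglutarate dehydrogenase complex (GRCh38, chr7:44606572-44709066, + strand), read 104, 104, 100 and 106 CPM in WT in normoxia and 45.9, 43.3, 45.6 and 46.2 CPM in hypoxia. In MIR210-KO it read 99.4, 106, 100 and 103 against 58.3, 57.4, 52.9 and 58.6 CPM, and in MIR210HG-KO 110, 104, 76.7 and 98.9 against 58.8, 59.9, 61.2 and 58.9 CPM. The fall was largest in WT, -1.19 ± 0.069, with -0.85 ± 0.068 in MIR210-KO and -0.71 ± 0.068 in MIR210HG-KO. OGDH in normoxia did not pass the test between genotypes, and the hypoxia levels were lower in all 4 WT libraries than in any knockout library.

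The other subunits of the same complex, DLST (E2) and DLD (E3), fell less, DLST by 0.24 ± 0.043, 0.18 ± 0.043 and 0.25 ± 0.043 in WT, MIR210-KO and MIR210HG-KO. IDH3B, the beta subunit of the NAD-dependent isocitrate dehydrogenase, read 149, 144, 138 and 141 CPM in WT in normoxia and 89.4, 70.3, 90.8 and 72.1 CPM in hypoxia, a change of -0.83 ± 0.071. In MIR210-KO it read 109, 119, 122 and 116 against 71.3, 63.9, 58.5 and 64.9 CPM (-0.85 ± 0.072). No IDH3B library in hypoxia reached a normoxia library of its genotype. Its partner subunits fell less, IDH3A by 0.45 ± 0.050 and IDH3G by 0.34 ± 0.066 in WT. Of the exon bases of IDH3G, 10.2% lie in SSR4, a gene on the opposite strand that also fell, by 0.52 ± 0.085 in WT, 0.81 ± 0.085 in MIR210-KO and 0.74 ± 0.086 in MIR210HG-KO. Its part in the counts of IDH3G was not tested. CS, which makes citrate, fell by 0.45 ± 0.044, 0.46 ± 0.044 and 0.58 ± 0.044.

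From succinyl-CoA to malate, FH, fumarase, was lower in every genotype (-0.36 ± 0.065 in WT, -0.54 ± 0.066 in MIR210-KO and -0.63 ± 0.066 in MIR210HG-KO). SUCLG1, the alpha subunit common to both succinyl-CoA synthetases, was called lower in MIR210-KO (-0.38 ± 0.064) and MIR210HG-KO (-0.53 ± 0.065), and its WT change was -0.10 ± 0.064. SUCLG2 and SUCLA2, the GTP- and ATP-specific beta subunits, were called lower in MIR210HG-KO, by 0.17 ± 0.054 and 0.17 ± 0.056, and did not pass in WT or MIR210-KO.

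At pyruvate entry, PDHA1, PDHB and DLAT fell in every genotype. PDHA1, the catalytic alpha subunit, fell by 0.49 ± 0.057, 0.49 ± 0.057 and 0.60 ± 0.057, and PDHB by 0.68 ± 0.057, 0.65 ± 0.058 and 0.55 ± 0.057. DLAT fell by 0.78 ± 0.051 in WT, 0.58 ± 0.051 in MIR210-KO and 0.46 ± 0.050 in MIR210HG-KO. PDHX was called higher in WT (0.14 ± 0.050, adjusted p = 0.0172), but not without the 4 libraries (0.10, adjusted p = 0.0929). MPC1, a subunit of the pyruvate carrier, fell by 0.27 ± 0.062, 0.62 ± 0.063 and 0.51 ± 0.062, and MPC2, the other subunit, was not called in any genotype (0.12 ± 0.094, 0.06 ± 0.096 and -0.14 ± 0.094). MPC2 shares 22.5% of its exon bases with DCAF6 on the opposite strand, which changed by -0.45 ± 0.053 in WT and was not called in the knockouts.

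PC, which makes oxaloacetate from pyruvate, fell with low oxygen in every genotype, by 0.93 ± 0.091 in WT, 0.84 ± 0.10 in MIR210-KO and 1.10 ± 0.097 in MIR210HG-KO. In MIR210HG-KO its libraries read 30.4, 28.6, 21.2 and 25.5 CPM in normoxia and 11.1, 13.3, 13.6 and 11.1 CPM in hypoxia, without overlap. GLUD1, glutamate dehydrogenase, which feeds oxoglutarate from glutamate, was called lower in MIR210-KO (-0.20 ± 0.050) and MIR210HG-KO (-0.22 ± 0.050), with -0.10 ± 0.050 in WT. ME2 changed by -0.14 ± 0.054 in WT and -0.20 ± 0.054 in MIR210-KO, both called, and by -0.12 ± 0.054 in MIR210HG-KO, not called.

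The next question was whether a knockout's response to oxygen differed from that of WT, tested as an interaction. For MIR210-KO, 8 of 31 members were called (26.5% of all genes tested), 3 higher (12.5%) and 5 lower (14%). For MIR210HG-KO 12 were called (22.5% of all genes), 3 higher (10.2%) and 9 lower (12.2%). Both tests use the same 8 WT libraries, so their results are not independent. Without the 4 libraries that stand apart the splits became 9 higher and 3 lower for MIR210-KO (28.6% of all genes called, 48.8% of those higher), and 5 higher and 5 lower for MIR210HG-KO (23.1%, 47.6% of those higher). Under upper quartile factors they were 6 and 5 for MIR210-KO (27.1% of all genes called) and 3 and 5 for MIR210HG-KO (22.9%). The share of all calls that were higher was then 56.8% and 55.8%, against 47.2% and 45.6% under the main scaling. The count and direction over the whole list therefore turned on these choices. IDH1, OGDH, PDP1 and ME1 were called for both knockouts in all 33 alternative settings.

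IDH1, the cytosolic and peroxisomal NADP-dependent isocitrate dehydrogenase (chr2:208236227-208266074, - strand), fell in WT from 84.1, 80.9, 82.1 and 84.7 CPM to 50.4, 45.6, 51.7 and 45.5 CPM. In MIR210-KO it went from 64.9, 65.8, 65.1 and 62.2 CPM to 56.0, 51.1, 53.1 and 53.1 CPM. In MIR210HG-KO it went from 96.4, 92.5, 98.7 and 92.1 CPM to 91.4, 89.7, 85.1 and 86.6 CPM. The change with oxygen was -0.78 ± 0.051 in WT (adjusted p = 2.80e-14), -0.27 ± 0.052 in MIR210-KO (3.42e-05) and -0.11 ± 0.051 in MIR210HG-KO (0.0773, not called). The interactions were 0.51 ± 0.073 for MIR210-KO (adjusted p = 3.18e-06) and 0.67 ± 0.072 for MIR210HG-KO (adjusted p = 3.31e-08). In hypoxia all 4 MIR210HG-KO libraries lay above all WT and MIR210-KO libraries. The MIR210-KO call of IDH1 in oxygen was lost with the length balance as a covariate (-0.15, adjusted p = 0.0618). IDH2, the mitochondrial NADP-dependent enzyme, did not pass either interaction test (0.24 ± 0.098 and -0.11 ± 0.098).

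PDP1 (chr8:93857807-93926066, + strand) rose in WT from 31, 33, 30.9 and 32 CPM to 42.0, 45.7, 46.4 and 48.2 CPM, by 0.52 ± 0.054 on the log2 scale (adjusted p = 6.45e-10). In MIR210-KO it read 49.6, 46.2, 50 and 46.9 CPM in normoxia and 45.5, 48.5, 45.7 and 45.5 CPM in hypoxia. In MIR210HG-KO it read 22.8, 21.9, 23.2 and 23 CPM and then 23.4, 23.5, 24.8 and 25.2 CPM. Neither knockout passed the oxygen test, at -0.06 ± 0.053 and 0.09 ± 0.057. The interactions were -0.58 ± 0.076 (adjusted p = 7.14e-07) and -0.43 ± 0.079 (adjusted p = 0.000143).

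ME1, the cytosolic malic enzyme, which makes pyruvate and NADPH from malate (chr6:83210389-83431071, - strand), showed a like order of groups. In WT it rose from 37.6, 43.6, 42.5 and 43.0 CPM to 59.9, 52.1, 57.1 and 52.0 CPM, a change of 0.41 ± 0.070. It read 58.6, 55.7, 57.5 and 52.3 CPM against 50.5, 48.5, 49.9 and 53.2 CPM in MIR210-KO, and 30.3, 29.8, 37.4 and 32.2 CPM against 33.2, 29.5, 30.3 and 35.0 CPM in MIR210HG-KO. The interactions were -0.56 ± 0.098 (adjusted p = 6.23e-05) and -0.43 ± 0.10 (adjusted p = 0.00216). For both PDP1 and ME1, MIR210-KO was above WT in normoxia and MIR210HG-KO was below WT at both oxygen levels, so that the knockouts lay on opposite sides of WT in normoxia.

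**Figure D3:**
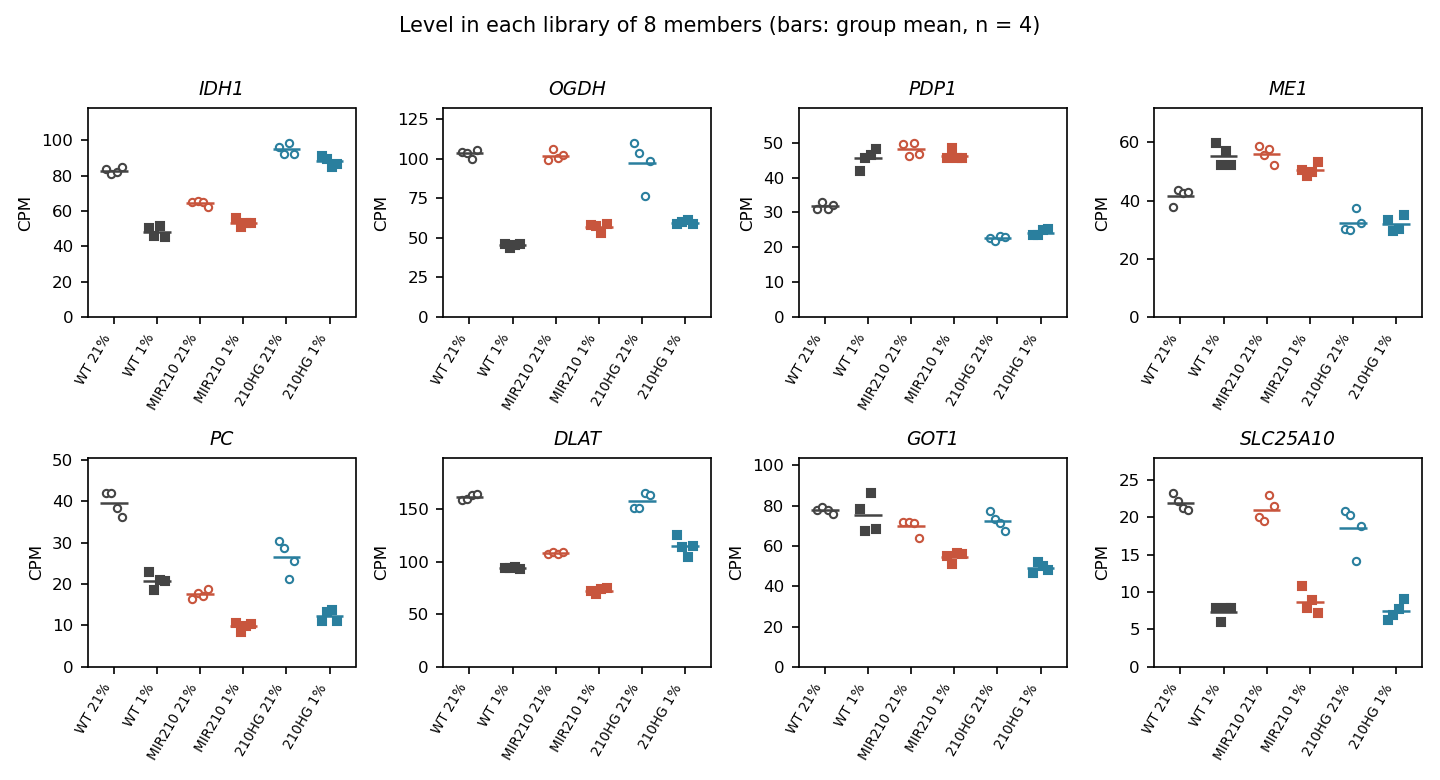
CPM in each of the 4 libraries of the 6 groups for members named in the text, with the group mean as a bar; each panel starts at 0. IDH1 drops in WT and stays high in MIR210HG-KO in hypoxia, and PDP1 and ME1 rise with low oxygen in WT and not in the knockouts.

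GOT1, the cytosolic aspartate aminotransferase, read 77.8, 79.5, 77.8 and 76.1 CPM in WT in normoxia and 78.5, 67.5, 86.5 and 68.2 CPM in hypoxia, where libraries 1 and 3 were the higher pair. It fell by 0.36 ± 0.066 in MIR210-KO, from 72.0, 71.9, 71.6 and 64.2 CPM to 55.2, 50.9, 56.5 and 56.0 CPM. Against WT in hypoxia GOT1 was lower by 0.46 ± 0.066 in MIR210-KO and 0.61 ± 0.066 in MIR210HG-KO. With low oxygen MIR210HG-KO fell by 0.56 ± 0.067, from 77.3, 73.5, 71.3 and 67.3 CPM to 46.5, 52.2, 50.2 and 48.0 CPM. Its interaction was -0.51 ± 0.093 for MIR210HG-KO (adjusted p = 0.00016), called in all 33 settings, and -0.31 ± 0.093 for MIR210-KO (adjusted p = 0.0137), which without the 4 libraries was -0.17 (adjusted p = 0.104). OGDH had positive interactions, 0.35 ± 0.096 and 0.49 ± 0.096 (adjusted p = 0.00696 and 0.000369). Further calls lost without the 4 libraries were SUCLG1 for MIR210-KO (-0.28 ± 0.090, then -0.14, adjusted p = 0.115) and, for MIR210HG-KO, SUCLA2, FH, PDHX and MPC1. FH went from -0.27 ± 0.093 to -0.07 (adjusted p = 0.514) and MPC1 from -0.25 ± 0.088 to -0.09 (adjusted p = 0.44). SUCLG1 and IDH3G for MIR210HG-KO were called in all 33 settings, at -0.43 ± 0.091 and -0.35 ± 0.094. The interaction of SSR4, which overlaps IDH3G, was -0.22 ± 0.12 for MIR210HG-KO (adjusted p = 0.208). DLAT had 0.32 ± 0.071 for MIR210HG-KO, called in all 33, and 0.20 ± 0.072 for MIR210-KO, called in 14 of 33.

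Each knockout was then compared with WT at one oxygen level. The knockouts share the WT libraries, so their values are set side by side. In normoxia, 17 members were called in MIR210-KO (44.2% of all genes tested), 6 higher (22.6%) and 11 lower (21.6%). In MIR210HG-KO 14 were called (35.2%), 4 higher (15.6%) and 10 lower (19.6%). The members' medians were -0.10 and -0.09, and those of all genes 0.01 and -0.01. Without the 4 libraries 25 were called in MIR210-KO (50.1%), 9 higher and 16 lower, and 16 in MIR210HG-KO (39.5%), 5 higher and 11 lower. In hypoxia 19 were called in MIR210-KO (55.9%), 7 higher (28.2%) and 12 lower (27.7%), and 23 in MIR210HG-KO (54.6%), 6 higher (24.4%) and 17 lower (30.2%). The medians in hypoxia were -0.08 and -0.18, beside 0.02 and -0.03 for all genes. Without the 4 libraries the members' medians were 0.01 and -0.04, beside 0.02 and -0.02 for all genes. With the length balance as a covariate they were -0.08 and -0.08. Of the 17 lower in MIR210HG-KO in hypoxia, 5 were lost without the 4 libraries: IDH3B, FH, MDH2, PDHA1 and SLC25A11. In MIR210-KO in hypoxia the split was 11 higher and 11 lower under upper quartile factors (56.5% of all genes called), 9 and 10 without the 4 libraries (52.3%), and 2 and 11 in a fit of only the groups compared (51.0%). In MIR210HG-KO in hypoxia it was 7 and 12 without the 4 libraries (51.7%).

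**Figure D4:**
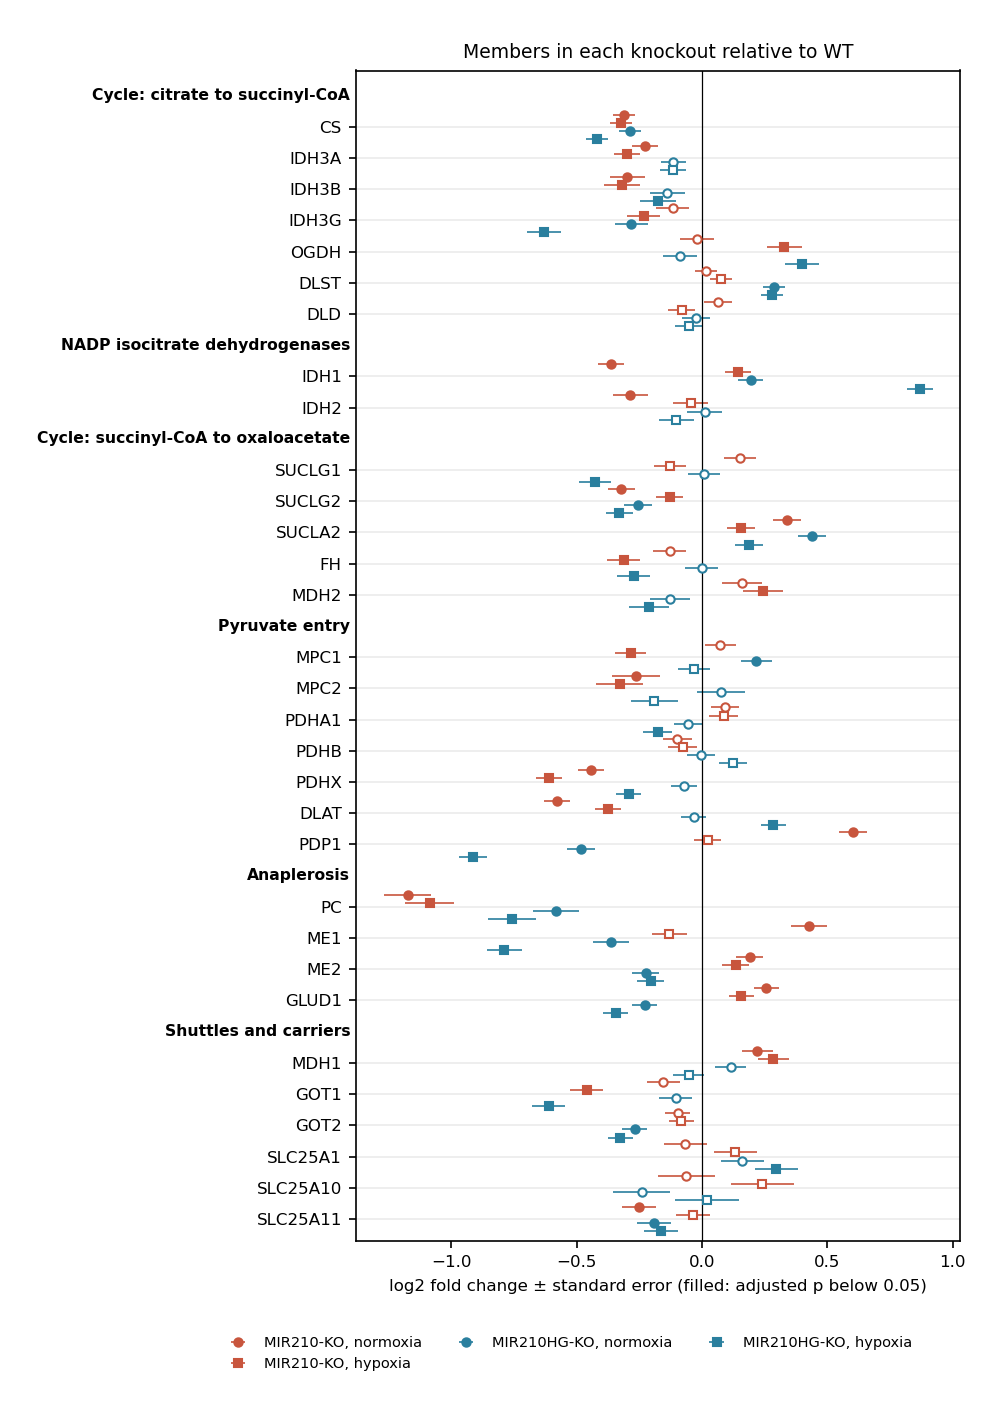
Log2 fold change of each member in MIR210-KO and in MIR210HG-KO against WT, in normoxia and in hypoxia, with standard errors; filled points passed an adjusted p of 0.05 (edgeR). PC lies below 0 in all 4 comparisons, PDP1 and ME1 lie on opposite sides of 0 for the knockouts in normoxia, and IDH1 is highest in MIR210HG-KO in hypoxia.

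PC had the largest fold change of the members against WT in normoxia in both knockouts. It read 42.1, 41.9, 38.3 and 36.1 CPM in WT in normoxia, 16.4, 17.8, 17.2 and 18.9 CPM in MIR210-KO and 30.4, 28.6, 21.2 and 25.5 CPM in MIR210HG-KO. The 3 genotypes did not overlap. The changes against WT were -1.17 ± 0.094 (adjusted p = 5.25e-12) and -0.58 ± 0.092 (adjusted p = 5.43e-06). In hypoxia PC read 22.8, 18.6, 20.9 and 20.8 CPM in WT, 10.6, 8.48, 9.80 and 10.3 CPM in MIR210-KO and 11.1, 13.3, 13.6 and 11.1 CPM in MIR210HG-KO. The changes were -1.08 ± 0.098 and -0.76 ± 0.096. Of PC's exon bases, 10.5% lie in LRFN4, a gene on the opposite strand with a mean level of 24.7 CPM. Against WT in normoxia LRFN4 differed by -0.12 ± 0.095 in MIR210-KO (adjusted p = 0.322) and -0.29 ± 0.095 in MIR210HG-KO (adjusted p = 0.0156). With low oxygen LRFN4 fell by 1.0 ± 0.096 in WT, 1.29 ± 0.099 in MIR210-KO and 1.18 ± 0.10 in MIR210HG-KO. Its part in the counts of PC was not tested.

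The other members called lower against WT in MIR210-KO in normoxia and also placed on chromosome 11 were DLAT and PDHX. DLAT (chr11:112024814-112064390, + strand) read 159, 160, 164 and 164 CPM in WT and 107, 110, 107 and 109 CPM in MIR210-KO (-0.58 ± 0.051, adjusted p = 3.65e-11). In MIR210HG-KO DLAT read 152, 151, 166 and 164 CPM and was not called (-0.03 ± 0.050). In normoxia PDHX was at 55.0 ± 1.5 CPM in WT and 40.5 ± 1.9 CPM in MIR210-KO. PDHX (chr11:34915829-35020591, + strand) read 61.4, 59.1, 62.8 and 59.2 CPM in WT in hypoxia and 42.1, 39.5, 39.1 and 38.1 CPM in MIR210-KO (-0.61 ± 0.051, adjusted p = 6.04e-12), and in MIR210HG-KO 48.2, 51.6, 48.3 and 50.1 CPM (-0.29 ± 0.050). Neither gene's WT libraries overlapped those of MIR210-KO.

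MIR210 itself lies on chromosome 11, and in MIR210-KO the genes of that chromosome were low as a whole. Over its tested genes the median change against WT in normoxia was -0.50 in MIR210-KO and -0.02 in MIR210HG-KO. Among genes that start within 5 Mb of PC (chr11:66848233-66958376, - strand), the median was -0.54 in MIR210-KO and 0.00 in MIR210HG-KO. PC differed from that median by -0.63 and -0.58. DLAT differed by -0.06 from its neighbours, whose median in MIR210-KO was -0.52, and the neighbours of PDHX had a median of -0.23. These medians are from normoxia, and the log2 change of PDHX given above is from hypoxia. On chromosome 20, where the median was -0.46 in MIR210-KO, IDH3B was at -0.30. In MIR210HG-KO, DLST was at 0.29 on chromosome 14, where the chromosome's median was 0.40. The level of chromosome 11 moved with the MIR210-KO label for these genes, and its part in each of their changes was not tested.

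**Figure D5:**
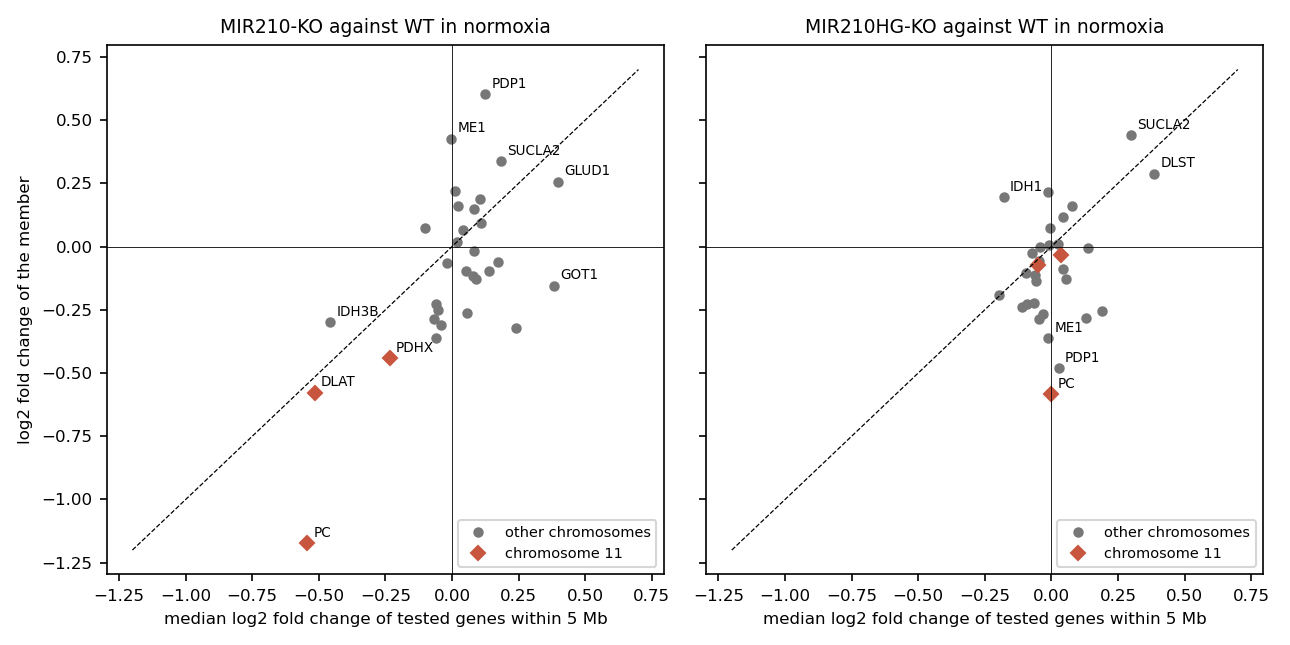
Each member's log2 change against WT in normoxia (vertical) against the median log2 change of tested genes that start within 5 Mb of it (horizontal), for MIR210-KO and MIR210HG-KO, with a line of equality. In MIR210-KO, DLAT lies near the line and PC well below it, and in MIR210HG-KO PC lies below neighbours whose median is 0.00.

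PDP1 was higher in MIR210-KO than WT in normoxia (0.60 ± 0.055, adjusted p = 8.24e-11) and lower in MIR210HG-KO (-0.48 ± 0.057, adjusted p = 3.42e-08), with no overlap between genotypes. In hypoxia MIR210-KO did not pass (0.02 ± 0.053) and MIR210HG-KO was lower by 0.91 ± 0.055. ME1 followed with 0.43 ± 0.070 and -0.36 ± 0.072 in normoxia and -0.79 ± 0.070 in MIR210HG-KO in hypoxia. All 4 tested members grouped here under anaplerosis (PC, ME1, ME2 and GLUD1) were lower than WT in MIR210HG-KO at both oxygen levels. Of all genes tested, 19.6% were lower in normoxia and 30.2% in hypoxia. In MIR210-KO in normoxia 3 of the 4 were higher (22.6% of all genes), ME1, ME2 (0.19 ± 0.054) and GLUD1 (0.26 ± 0.050), and PC was lower (21.6%). The direction in which these enzymes worked was not measured. GLUD1 lies on chromosome 10, where the tested genes' median in MIR210-KO was 0.27.

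SUCLA2 was higher than WT in both knockouts. It read 50.4, 53.5, 53.5 and 55.9 CPM in WT in normoxia, 67.3, 68.3, 69.9 and 64.1 CPM in MIR210-KO (0.34 ± 0.056) and 67.5, 71.2, 78.9 and 71.7 CPM in MIR210HG-KO (0.44 ± 0.056), with no WT library reaching the knockouts. The neighbours of SUCLA2 on chromosome 13 had a median of 0.19 in MIR210-KO and 0.30 in MIR210HG-KO. CS was lower in both knockouts, by 0.31 ± 0.044 and 0.29 ± 0.044 in normoxia and by 0.32 ± 0.044 and 0.42 ± 0.044 in hypoxia, with libraries that did not overlap WT. IDH1 in normoxia was lower in MIR210-KO (-0.36 ± 0.051) and higher in MIR210HG-KO (0.19 ± 0.051), and in hypoxia it was higher in MIR210HG-KO by 0.87 ± 0.051 (adjusted p = 2.68e-15). In hypoxia IDH1 was also called higher than WT in MIR210-KO, at 53.3 ± 2.0 against 48.3 ± 3.2 CPM, with libraries that overlapped.

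Compared directly, the knockouts differed in normoxia in 16 members (49.2% of all genes tested), 8 higher (23.4%) and 8 lower (25.8%) in MIR210HG-KO than in MIR210-KO. The split was 11 and 6 under RLE factors (49.43% of all genes called). The share of all calls that were higher was then 50.01%, against 47.53% under the main scaling. In hypoxia 19 differed (55.1%), 8 higher (26%) and 11 lower (29%). Without the 4 libraries 22 differed in normoxia (52.3%), 11 in each direction, and 24 in hypoxia (57.5%), 11 higher and 13 lower. PDP1 was lower in MIR210HG-KO by 1.08 ± 0.056 in normoxia and 0.94 ± 0.055 in hypoxia (adjusted p = 7.09e-17 and 1.37e-15), and ME1 by 0.79 ± 0.071 and 0.66 ± 0.070. PC was higher in MIR210HG-KO by 0.59 ± 0.096 and 0.33 ± 0.10, IDH1 by 0.56 ± 0.051 and 0.73 ± 0.051, and DLAT by 0.55 ± 0.051 and 0.66 ± 0.051. In hypoxia DLAT read 72.1, 69.2, 74.5 and 74.7 CPM in MIR210-KO and 125, 114, 105 and 115 CPM in MIR210HG-KO, without overlap.

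Because the knocked-out gene encodes a microRNA, the 3' UTRs of the members were searched for its sites. The guide strand is shown with its seed, bases 2 to 8, in capitals (RefSeq, GRCh38.p14, chr11:568112-568133, - strand).
hsa-miR-210-3p: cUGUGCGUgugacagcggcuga
Seed sites of 7 bases, ACGCACA and CGCACAA, were present in the 3' UTR of 0 of 31 members with an annotated one, and in 525 of 14247 tested genes (3.68%), in 1 transcript per gene of GENCODE release 29. No match says only that these letters are not in these UTRs.

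Promoters were searched for the core of the hypoxia response element, ACGTG, and its reverse complement CACGT, over 250 bases before and 50 after each RefSeq start. For 30 members 40 windows were matched, and 9 windows (22.5%) held a match, beside 21.4% of 35116 promoters in all and 24.6% of those of tested genes. The windows of IDH1 and PC that hold a match are shown because IDH1 had the largest interaction of the members in MIR210HG-KO and PC the largest difference from WT in normoxia. Matches are in capitals (RefSeq, GRCh38.p14, both - strand, at chr2:208254409-208254708 and chr11:66958334-66958633).
IDH1 promoter: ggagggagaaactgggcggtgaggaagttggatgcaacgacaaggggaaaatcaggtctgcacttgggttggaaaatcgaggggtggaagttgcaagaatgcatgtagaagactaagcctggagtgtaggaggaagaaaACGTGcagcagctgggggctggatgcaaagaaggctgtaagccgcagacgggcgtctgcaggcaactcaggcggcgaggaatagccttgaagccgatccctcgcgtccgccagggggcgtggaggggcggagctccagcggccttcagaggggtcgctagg
PC promoter: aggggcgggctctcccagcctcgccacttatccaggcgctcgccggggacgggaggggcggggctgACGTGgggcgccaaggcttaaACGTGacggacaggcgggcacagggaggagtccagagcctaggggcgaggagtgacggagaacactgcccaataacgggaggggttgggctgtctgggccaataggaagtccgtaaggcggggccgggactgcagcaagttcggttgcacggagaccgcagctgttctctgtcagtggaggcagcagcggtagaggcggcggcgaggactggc
IDH1 fell with low oxygen in WT and PC fell in all genotypes, and the other IDH1 window and both other PC windows held no match. A match is a description of the letters and not a bound site.

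The companion genes of the pathway, not among the 32, were counted in the same fit. Of further cycle enzymes, SDHA, SDHB, SDHC and SDHD, the subunits of succinate dehydrogenase, were each called lower in hypoxia in WT and in MIR210HG-KO, and so were ACO1, the cytosolic aconitase, and OGDHL, a homologue of OGDH. In MIR210-KO, ACO1, SDHA and SDHB were called lower, and SDHC, SDHD and OGDHL were not called. SDHA, the flavoprotein subunit, fell by 0.31 ± 0.059 in WT, 0.30 ± 0.059 in MIR210-KO and 0.53 ± 0.059 in MIR210HG-KO. SDHB, the iron-sulfur subunit of succinate dehydrogenase, fell by 0.33 ± 0.078, 0.49 ± 0.078 and 0.67 ± 0.079. OGDHL fell in WT by 0.71 ± 0.084, and its interaction was 0.58 ± 0.12 for MIR210-KO and 0.40 ± 0.12 for MIR210HG-KO.

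Of 9 regulators and lipoylation genes of pyruvate dehydrogenase, 4 were higher and 3 lower in WT in hypoxia, 5 and 1 in MIR210-KO, and 4 and 1 in MIR210HG-KO. Over all genes tested, 29.6% were higher and 30.7% lower in WT, 29.3% and 29.5% in MIR210-KO, and 25.7% and 28.3% in MIR210HG-KO. PDK1, the kinase that inactivates the complex and a known hypoxia target, rose from 51.0 ± 1.3 to 154 ± 11 CPM in WT, a change of 1.59 ± 0.059. It rose by 1.73 ± 0.061 in MIR210-KO and 2.15 ± 0.061 in MIR210HG-KO. PDK4, another of the kinases, rose by 0.93 ± 0.13, 0.99 ± 0.12 and 0.66 ± 0.15. PDK2 fell in WT (-0.66 ± 0.088) and in MIR210HG-KO (-0.37 ± 0.086). LIAS, lipoyl synthase, rose by 0.82 ± 0.090, 0.50 ± 0.091 and 0.36 ± 0.094.

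Among 21 genes of glutamine, propionate, pyruvate and citrate routes around the cycle, 6 were higher and 8 lower in WT in hypoxia. The split was 5 and 8 in MIR210-KO, and 5 and 9 in MIR210HG-KO. Of this list 66.7%, 61.9% and 66.7% were called, beside 60.3%, 58.7% and 54.1% of all genes tested. All genes were higher and lower in 29.6% and 30.7% in WT, 29.3% and 29.5% in MIR210-KO, and 25.7% and 28.3% in MIR210HG-KO. LDHA, the lactate dehydrogenase subunit induced in low oxygen, rose by 0.84 ± 0.051, 0.72 ± 0.051 and 0.91 ± 0.052, and LDHB, the other common subunit, was 2.4-fold, 2.4-fold and 2.6-fold lower. The phosphoenolpyruvate carboxykinases draw oxaloacetate out of the cycle. PCK1, the cytosolic form, rose from 1.33 ± 0.054 to 13.7 ± 2.4 CPM in WT (3.36 ± 0.18), and its interactions were -1.43 ± 0.30 for MIR210-KO and -2.26 ± 0.32 for MIR210HG-KO. PCK2, the mitochondrial form, was lower than WT in normoxia in both knockouts, by 1.43 ± 0.081 and 1.95 ± 0.084, with means of 89.8 ± 6.3 CPM in WT, 33.4 ± 1.9 CPM in MIR210-KO and 23.3 ± 2.7 CPM in MIR210HG-KO. GPT2, the mitochondrial alanine aminotransferase, was lower by 0.75 ± 0.062 and 0.96 ± 0.062, and SLC25A22, a mitochondrial glutamate carrier, by 1.0 ± 0.085 and 0.42 ± 0.083. Changes of chromosome neighbours were set beside members only. The part of chromosome position in the changes of these companion genes was not tested.

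Since the strand setting of the counting is not given in the sources used here, reads shared with overlapping genes could not be assigned to either gene. Of the 32 members, 18 share exon bases with another annotated gene, 17 with one on the opposite strand, and for 7 that share is over 10%: GLUD1, GOT1, IDH3A, IDH3G, MPC2, PC and PDHA1. IDH3A has the largest such share, 38.2%, with ACSBG1, which had a mean of 1.31 CPM against 53.7 CPM for IDH3A. Among these 7, the partner had the higher mean for PC (LRFN4, 24.7 against 21.1 CPM), for IDH3G (SSR4, 186 against 79.6 CPM) and for MPC2 (DCAF6, 80.5 against 32.7 CPM). SLC25A10 shares 46.6% of its exon bases with AC139530.2 on the same strand, which had a mean of 0.00104 CPM. Genes named as copies of a member, pseudogenes or paralogues, were found for 9 members (25 copies, matched by name with no sequence compared), the most abundant being the GLUD1 copy GLUD1P3 at 3.28 CPM against 191 CPM for GLUD1, and counts of these members are uncertain to the extent that reads were split between them.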

How the data were processed

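RNA of 24 HEK293T libraries was sequenced, 4 in each of 6 groups given by the labels. The authors deposited raw counts of reads per gene in 2 tables, 1 for each oxygen level, and per the submitters' processing notes STAR 2.6.1d, featureCounts 1.5.0-p3, DESeq2 1.20.0, edgeR 3.24.3 and GRCh38 were used, with no roles stated. The annotation release and strand setting are not given in the sources used here. Columns of per-sample values not used numbered 0, and totals ran from 25556776 to 37858947 counts, which limits precision at low counts.

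Counts were fitted in edgeR 4.0.16 (R 4.3.3) with the quasi-likelihood test, 1 mean per group over all 24 libraries, TMM factors and filterByExpr, which left 19952 genes. P-values are two-sided and adjusted by Benjamini-Hochberg over these genes, with a threshold of 0.05. The members and the companion and marker lists were chosen with earlier results of these data known. A gene of these lists is not reported here. All 32 members may be named, and values of every library are given for those among the 3 called members with the largest change in a comparison. Tables were handled in Python 3.11.15 with pandas 2.3.3 and drawn with matplotlib 3.10.9. Overlaps and 3' UTRs came from GENCODE 29, promoters and the microRNA from RefSeq. On simulated counts 2-fold changes were found in 92 to 98% of genes between groups, and in 84% and 79% for the interactions of MIR210-KO and MIR210HG-KO with oxygen. Changes of 1.25-fold were found in 40 to 57% between groups, and in 17% and 13% for these interactions. In each simulation all groups shared 1 mean per gene, except for 100 genes of each size changed in 1 group. Far fewer genes differed than in the data, which alters the adjusted p-values, so these shares need not hold for the tests above.

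Alternatives were RLE and upper quartile factors, no low-count filter, a filter of 5 CPM in 4 libraries, DESeq2 1.42.0, a replicate block, the long and short gene balance as a covariate, only the groups compared, and leaving out 4 libraries or each of 24.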

Additional observations from a re-analysis of the deposited data

Results flagged for a closer look

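Of 192 groups of 4 libraries examined, 1 library lay far from the other 3 in 7 (3.65%), where chance flags about 1 in 20. DLST was at 171 CPM in library 2 of MIR210-KO in normoxia, against 160 to 161 CPM in the others. MDH1 was at 176 CPM in library 2 of WT in normoxia, against 179 to 180 CPM. PDP1 was at 48.5 CPM in library 2 of MIR210-KO in hypoxia, against 45.5 to 45.7 CPM. ME3 was at 0.107 CPM in library 4 of MIR210HG-KO in hypoxia, where the others held 0 counts. GOT1 was at 64.2 CPM in library 4 of MIR210-KO in normoxia, against 71.6 to 72 CPM. GLUD1 was at 135 CPM in library 3 of MIR210HG-KO in hypoxia, against 149 to 151 CPM. SLC25A10 was at 6.01 CPM in library 2 of WT in hypoxia, against 7.81 to 7.9 CPM.

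In the main fit the interaction term of a knockout and oxygen was called for the following members, with differences on the log2 scale. For MIR210-KO the differences were 0.51 for IDH1, 0.35 for OGDH and 0.20 for DLAT, and -0.58 for PDP1, -0.56 for ME1, -0.36 for MPC1, -0.31 for GOT1 and -0.28 for SUCLG1. For MIR210HG-KO they were 0.67 for IDH1, 0.49 for OGDH and 0.32 for DLAT on the positive side. On the negative side were GOT1 at -0.51, PDP1, ME1 and SUCLG1 at -0.43 each, IDH3G at -0.35, FH at -0.27, SUCLA2 and MPC1 at -0.25 each and PDHX at -0.22. Not all of these calls held in other settings. Without the 4 libraries that stand apart, GOT1 and SUCLG1 for MIR210-KO were not called, nor were SUCLA2, FH, PDHX and MPC1 for MIR210HG-KO. The call of DLAT for MIR210-KO was lost in most alternative settings.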

How the results depend on the processing

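Of 201 calls of a member in a comparison, 155 held in all 33 alternative settings, 46 were lost in at least 1 and 5 changed sign in at least 1. The count of members whose response differed in MIR210-KO was 8 in the main fit, 3 higher and 5 lower, beside 26.5% of all genes. With the long and short gene balance as a covariate it was 13, 8 higher and 5 lower, beside 31.8% of all genes. The cause was not tested. Leaving out 1 library at a time gave 21 to 25, 23 to 25 and 23 to 26 members called with oxygen in WT, MIR210-KO and MIR210HG-KO, and 6 to 11 and 8 to 13 for the interactions of MIR210-KO and MIR210HG-KO. The shares of all genes called in these fits are not given here. Same-numbered libraries of different groups did not deviate together (median correlation -0.00127, 5 of 60 pairs over 0.1), and 4 of 24 libraries correlated best with their own number, so the number was not taken to pair them. With the replicate block the counts were 24, 24 and 25 for oxygen, 19, 14 and 17 in normoxia, 19, 22 and 20 in hypoxia, and 8 and 12 for the interactions. The shares of all genes called were then 60.1%, 58.4% and 53.9% for oxygen and 44.1%, 34.7% and 49.0% in normoxia. They were 55.8%, 54.5% and 55.0% in hypoxia, and 26.4% and 22.6% for the interactions. Depth limits ME3, with 0 to 7 counts per library.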
